A study of Homo sapiens with 12 samples.

Results

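The 9 genes described here are the human AlkB family as measured in input RNA: ALKBH5, FTO, ALKBH1, ALKBH2, ALKBH3, ALKBH4, ALKBH6, ALKBH7 and ALKBH8. They were taken by gene symbol, and all 9 were found among 20308 genes in the table. The cells were C4-2, a castration-resistant prostate cancer line, and each library came from control cells given the vector with no insert (NC) or from cells made to overexpress ALKBH5 (oeALKBH5). Apart from the construct, the labels list no treatment of the NC cells, and they do not give the promoter of the construct or say whether a group is a single clone. Each group had 3 input libraries of total RNA depleted of ribosomal RNA and 3 libraries of m6A immunoprecipitated RNA, which makes 12 samples. Nothing in the labels ties the replicates to separate cultures, so p-values here measure library-to-library spread, which may be purely technical.

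AlkB enzymes are iron-dependent dioxygenases that use molecular oxygen and the metabolite 2-oxoglutarate to oxidise their substrates, in many cases the methyl groups on nucleic acid bases. ALKBH5 and FTO are the erasers of N6-methyladenosine (m6A), the mark that the METTL3-METTL14 writer complex places on mRNA and that reader proteins bind. ALKBH2 and ALKBH3 repair alkylated bases, ALKBH1 and ALKBH8 act on transfer RNA, and ALKBH4 and ALKBH7 have roles outside nucleic acid repair.

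Among the members, only the input values of ALKBH5 and ALKBH1 did not overlap between the groups, as in 28.1% of all 12757 tested genes. Upstream sequence is shown for these members. It comes from the RefSeq promoter table of build GRCh38.p14, which held an entry for each of the 9 members. For ALKBH5 the 250 bases before the start site (chr17:18183578-18183827, plus strand) are printed 5′ to 3′, because ALKBH5 is known as a gene induced by hypoxia. Capitals mark GCGTG or its reverse complement CACGC, a form of the core bound by hypoxia-inducible factors.
ALKBH5: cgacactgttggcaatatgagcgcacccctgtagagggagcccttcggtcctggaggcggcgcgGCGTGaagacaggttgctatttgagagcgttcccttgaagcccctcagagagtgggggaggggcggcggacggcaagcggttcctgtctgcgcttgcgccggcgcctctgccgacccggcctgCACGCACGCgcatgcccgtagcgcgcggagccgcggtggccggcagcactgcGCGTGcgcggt
This window held GCGTG 2 times as printed and 2 times on the other strand, of which the adjoining CACGC copies overlap by 1 base, and no ACGTG on either strand. At least 1 GCGTG on either strand was present in 32.2% of 35116 promoter windows of the same length, and in those of 5 members, ALKBH5, ALKBH2, ALKBH3, ALKBH4 and ALKBH6. ACGTG was present in 18.5% of all windows and in 0 of the 9 members. A member was counted if any of its windows held the letters, whereas the shares are over single windows. The counts of members and these shares are therefore in unlike units. These matches describe letters and not binding. The labels do not give the promoter of the construct, which need not be this sequence, and any link to the ALKBH5 difference was not tested.

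ALKBH1 lies head to head with SLIRP, a mitochondrial RNA-binding protein gene, so the stretch between their start sites serves as upstream sequence for both. The 47 bases between them (chr14:77708024-77708070, minus strand, build GRCh38.p14) are printed in the direction of ALKBH1, with capitals on CCGGAA or its reverse complement TTCCGG, which holds the GGAA core bound by ETS factors.
ALKBH1-SLIRP: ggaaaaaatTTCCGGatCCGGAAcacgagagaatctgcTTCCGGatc
CCGGAA occurred 1 time as printed and 2 times on the other strand, with no overlap among the copies. Of all promoter windows, 5.17% held at least 1 copy within the last 47 bases before the start. FTO faces RPGRIP1L, and ALKBH4 faces LRWD1, in the same way, so that 3 of the 9 members have a protein-coding neighbour whose opposite-strand start lies within 300 bases upstream. That was the case for 1489 of the 15843 protein-coding genes in the promoter table (9.40%).

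The libraries summed to between 511333 and 524905 FPKM (fragments mapped to a gene, scaled to its length and to the library's mapped total), and their absolute depth is unknown. Markers of this prostate line were present, with KLK3 averaging 1004 FPKM in NC and 943 FPKM in oeALKBH5. Of 9 such markers, 1 rose, KRT8, from 137 ± 8.44 to 223 ± 13.2 FPKM (limma adjusted p = 0.00242), and none fell. Summed fibroblast markers ranged from 4.05 to 13.1 FPKM in NC and from 4.08 to 28.1 FPKM in oeALKBH5, with DCN and LUM at 0 throughout. COL1A1 was the highest of them in every library, at 12.2, 4.79 and 3.43 FPKM in NC and 2.17, 27.6 and 8.08 FPKM in oeALKBH5. It was not called (limma adjusted p = 0.775). Summed immune markers ranged from 0.521 to 4.28 FPKM in NC and from 3.49 to 8.28 FPKM in oeALKBH5, with MS4A1 at 0 throughout, and summed basal prostate markers ranged over 1.58 to 4.95 FPKM for NC and 0 to 6.14 FPKM for oeALKBH5. Among the immune markers, PTPRC measured 0, 0.0668 and 0 FPKM in NC and 0.213, 0.290 and 0.456 FPKM in oeALKBH5, and CD3D 0.524, 0 and 0.527 FPKM against 1.27, 1.70 and 2.53 FPKM. Both were low and higher in every oeALKBH5 library than in every NC library; CD3D was not called (limma adjusted p = 0.111) and PTPRC was under the level tested. The part of these markers in the results was not tested.

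The first question was how far RNA of ALKBH5, the gene that the labels name as overexpressed, differed between the groups. ALKBH5 measured 64.9, 61.1 and 58.2 FPKM in NC replicates 1, 2 and 3, and 80.3, 74.3 and 72.5 FPKM in oeALKBH5 replicates 1, 2 and 3. Every oeALKBH5 library stood above every NC library, and the replicates of each group lay close together (coefficient of variation 5.53% in NC and 5.35% in oeALKBH5). The group means were 61.4 ± 3.39 and 75.7 ± 4.05 FPKM (mean ± SD, n = 3 per group), a ratio of 1.23. On the log2(FPKM + 1) scale the difference was 0.30 (SE 0.10, 95% interval 0.08 to 0.52), which corresponds to a 1.06- to 1.43-fold difference. It did not pass limma's test over all genes (adjusted p = 0.114), where it ranked 1468 by p among 12757 genes; missing the threshold does not show that the groups had equal levels. An exact two-sided permutation test of the 6 libraries gave p = 0.1, the smallest that 3 against 3 allows. ALKBH5 was already abundant with the empty vector: its NC mean exceeded that of 88.3% of tested genes. Of all tested genes, 23.9% had a larger positive difference than ALKBH5, and 15.1% were higher in every oeALKBH5 library than in every NC library. The ALKBH5 values alone therefore cannot check the labels. How completely the deposited value counts transcripts of the construct is unknown, and a bulk value cannot separate how many cells carried the construct from how much RNA each cell made.

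FTO, the other eraser of m6A, measured 29.1, 39.0 and 33.9 FPKM in NC and 38.8, 40.5 and 52.2 FPKM in oeALKBH5, in replicate order. The groups overlapped narrowly, with the lowest oeALKBH5 library just under the highest NC library, and oeALKBH5 replicate 3 was the highest. The difference was 0.36 on the log2 scale (SE 0.16, 95% interval -0.00245 to 0.71, limma adjusted p = 0.232). The ratio of ALKBH5 to FTO was 2.24, 1.57 and 1.71 in NC and 2.07, 1.83 and 1.39 in oeALKBH5. These ratios interleaved, and the mean log2 ratio, with 1 FPKM added to each gene, differed by -0.06 (exact two-sided permutation p = 0.8). Its sign turned to 0.09 without NC replicate 1 and to 0.10 without oeALKBH5 replicate 3. ALKBH5 and FTO together made up 42.8% ± 2.58 of the summed FPKM of the 9 genes in NC and 47.4% ± 1.72 in oeALKBH5.

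**Figure D1:**
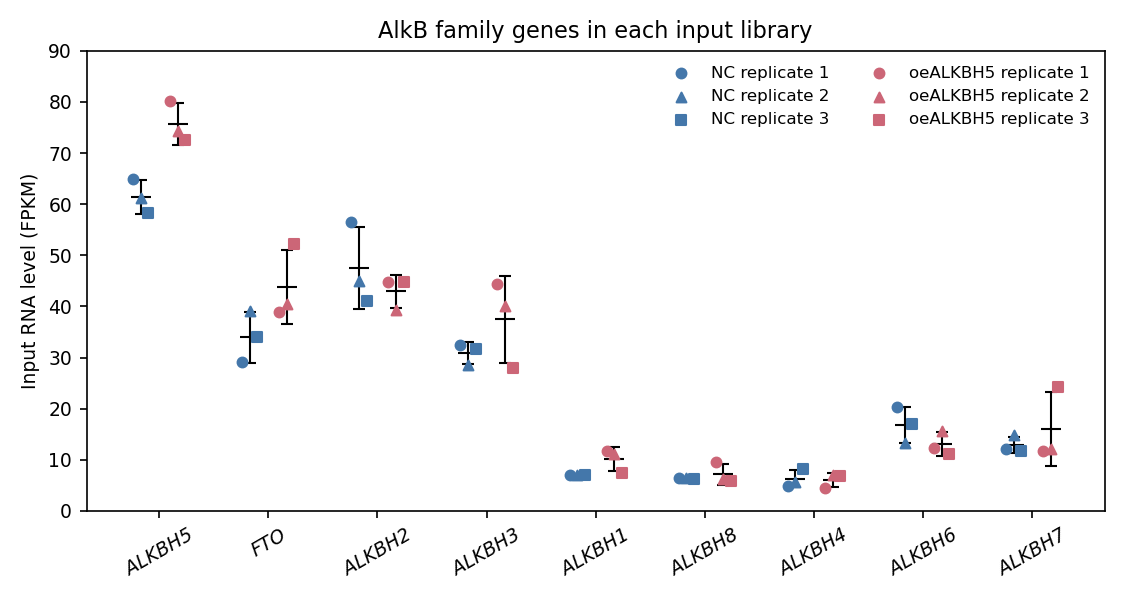
Input RNA level in FPKM (vertical axis) of the 9 AlkB family genes in each of 6 libraries, NC in blue and oeALKBH5 in red, with the symbol giving the replicate and black bars the mean and SD of 3 libraries. ALKBH5 is the highest gene in both groups, at 58.2 to 64.9 FPKM in NC and 72.5 to 80.3 FPKM in oeALKBH5, and in the other genes except ALKBH1 the groups overlap.

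ALKBH2 and ALKBH3 repair alkylated bases by direct reversal, ALKBH2 in double-stranded DNA and ALKBH3 in single-stranded DNA and RNA. ALKBH2 measured 56.6, 44.9 and 41.1 FPKM in NC and 44.8, 39.3 and 44.8 FPKM in oeALKBH5. NC replicate 1 was the highest, and the remaining libraries intermixed. The difference was -0.13 on the log2 scale (SE 0.14, 95% interval -0.45 to 0.19, limma adjusted p = 0.627). ALKBH3 measured 32.5, 28.5 and 31.7 FPKM in NC and 44.4, 40.1 and 27.9 FPKM in oeALKBH5. Replicates 1 and 2 of oeALKBH5 stood above all NC libraries and replicate 3 below them, so the difference of 0.25 (SE 0.18, 95% interval -0.15 to 0.64) did not pass the test (limma adjusted p = 0.451).

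ALKBH1 demethylates transfer RNA and takes part in modifying the wobble base of mitochondrial methionine transfer RNA. It measured 7.0, 7.0 and 7.03 FPKM in NC and 11.7, 11.2 and 7.43 FPKM in oeALKBH5. The groups did not overlap, but oeALKBH5 replicate 3 lay close to the NC libraries while the other two stood apart from them. The difference of 0.45 was the largest estimate in the family (SE 0.22, 95% interval -0.04 to 0.94), and it did not pass the test (limma adjusted p = 0.267). The NC replicates of ALKBH1 varied by 0.236% (coefficient of variation), and only 0.549% of tested genes had a smaller SD on the log2 scale in NC. In oeALKBH5 its coefficient of variation was 23.2%. SLIRP, which shares the upstream stretch printed above, measured 253, 335 and 286 FPKM in NC and 246, 216 and 242 FPKM in oeALKBH5, with every oeALKBH5 library below every NC library (difference -0.30, SE 0.11, limma adjusted p = 0.140). The 2 genes of this pair thus had differences of opposite sign, and neither passed the test.

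ALKBH8 joins an AlkB domain to a methyltransferase that completes the modified wobble uridine of certain transfer RNAs. It measured 6.41, 6.46 and 6.16 FPKM in NC and 9.57, 6.31 and 5.78 FPKM in oeALKBH5. Only oeALKBH5 replicate 1 stood outside the range of the others by more than 1 FPKM. The difference was 0.14 (SE 0.23, 95% interval -0.39 to 0.66, limma adjusted p = 0.778) and turned to -0.06 without that library.

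ALKBH4, which removes a methyl mark from actin, was among the lowest members. It measured 4.97, 5.73 and 8.24 FPKM in NC and 4.48, 6.94 and 6.74 FPKM in oeALKBH5, fully intermixed. The difference was -0.05 (SE 0.26, 95% interval -0.64 to 0.54, limma adjusted p = 0.944), and it turned to 0.14 without NC replicate 3 and to 0.13 without oeALKBH5 replicate 1. Its head-to-head neighbour LRWD1 (difference -0.22, limma adjusted p = 0.678) and the overlapping calcium channel gene ORAI2 (difference 0.13, limma adjusted p = 0.834) were not called either, and the split of reads between ALKBH4 and ORAI2 is uncertain.

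ALKBH6 measured 20.3, 13.2 and 17.1 FPKM in NC and 12.4, 15.7 and 11.2 FPKM in oeALKBH5. It had the most negative estimate of the family, -0.34 (SE 0.20, 95% interval -0.80 to 0.13), with overlapping groups and limma adjusted p = 0.376. ALKBH7, a mitochondrial protein linked to programmed necrosis, measured 12.1, 14.8 and 11.8 FPKM in NC and 11.6, 12.1 and 24.3 FPKM in oeALKBH5. A single library, oeALKBH5 replicate 3, carried its positive difference of 0.22 (SE 0.27, 95% interval -0.40 to 0.84, limma adjusted p = 0.690), which was -0.11 without it. PSPN, the gene of a neurotrophic factor that overlaps ALKBH7, did not exceed 2.00 FPKM in any library.

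**Figure D2:**
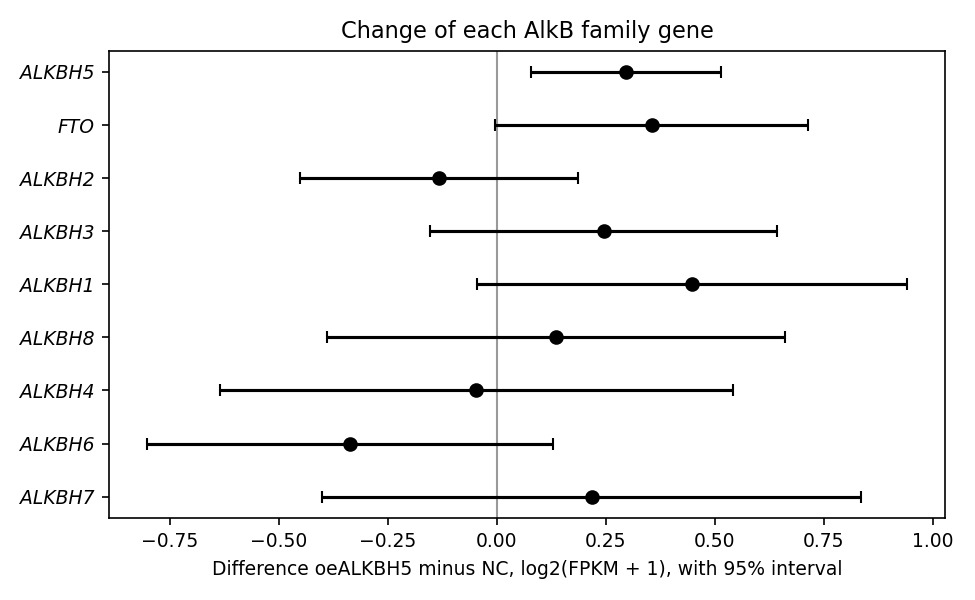
Difference between oeALKBH5 and NC on the log2(FPKM + 1) scale (horizontal axis) for each AlkB family gene, with points for the limma estimate and bars for its 95% interval over 3 libraries per group. Only the interval of ALKBH5, from 0.08 to 0.52, lies wholly above 0, and none lies wholly below.

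Across the family, limma called 0 of the 9 members at an adjusted p under 0.05, against 5.45% of all 12757 tested genes. At an unadjusted p under 0.05 it called 1 of the 9, ALKBH5, against 21.9% of all tested genes. The groups did not overlap in 2 members, ALKBH5 and ALKBH1, both higher in oeALKBH5, beside 28.1% of all tested genes in either direction and 15.1% in that direction. Estimates were positive in 6 members and negative in 3, with a median of 0.22 against 0.02 over all tested genes. ALKBH5 ranked first in both groups and did not overlap with the next gene of the order. In NC it was followed by ALKBH2, FTO and ALKBH3, of which FTO and ALKBH3 overlapped; then came ALKBH6 and ALKBH7, which overlapped, ALKBH1, and at the end ALKBH8 and ALKBH4, which overlapped. In oeALKBH5 the order after ALKBH5 was FTO, ALKBH2 and ALKBH3, each overlapping with the next, then ALKBH7, ALKBH6, ALKBH1, ALKBH8 and ALKBH4, again each overlapping with the next. The coefficient of variation was larger in oeALKBH5 than in NC for 5 members: ALKBH1, ALKBH3, ALKBH7 and ALKBH8 had 23.2%, 22.8%, 44.9% and 28.4% in oeALKBH5 and 0.236%, 6.78%, 12.7% and 2.54% in NC, and FTO had 16.5% and 14.6%. It was smaller in oeALKBH5 for the remaining members, at 7.38% against 17% for ALKBH2, 22.6% against 27.1% for ALKBH4, 17.5% against 21.0% for ALKBH6 and 5.35% against 5.53% for ALKBH5. These differences in spread were not tested.

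**Figure D3:**
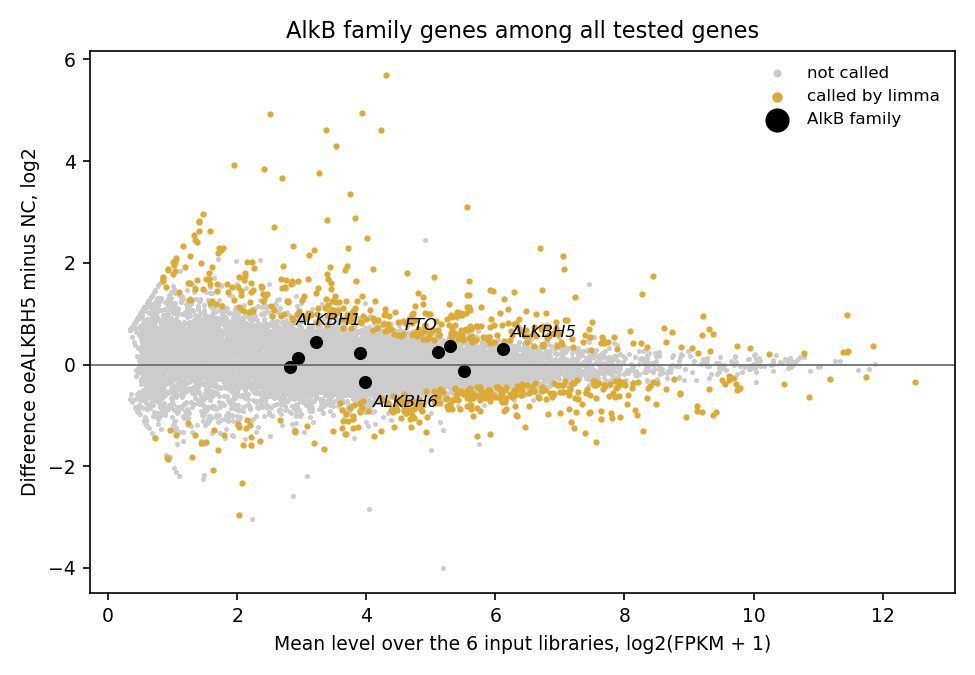
Difference between oeALKBH5 and NC (vertical axis, log2) against the mean level over 6 input libraries (horizontal axis, log2(FPKM + 1)) for 12757 tested genes, with called genes in yellow and the AlkB family in black. The 9 members lie between -0.34 and 0.45, and none of them was called.

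The genes whose values followed ALKBH5 most closely over the 6 libraries, on the log2(FPKM + 1) scale and among 7797 others averaging 10 FPKM or more, were JRKL (Pearson r = 0.988), RYBP, a Polycomb-associated protein gene (r = 0.985), PTGR3 (r = 0.984), MKRN1, which encodes a ubiquitin ligase (r = 0.984), and IQCG (r = 0.983). The points are the same 6 libraries for every gene, the genes were picked for their r, and the values are a description. MKRN1 measured 52.7, 49.8 and 45.9 FPKM in NC and 62.8, 60.0 and 60.4 FPKM in oeALKBH5, and like ALKBH5 it was not called (limma adjusted p = 0.126). Among the 5 other members that reach this level, which leaves out ALKBH1, ALKBH4 and ALKBH8, r with ALKBH5 was 0.67 for ALKBH3, 0.47 for FTO, 0.11 for ALKBH7, -0.11 for ALKBH2 and -0.49 for ALKBH6.

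The next comparison covered genes that place or read the mark that ALKBH5 and FTO remove. All 7 gene lists from here on were chosen with earlier results of these data known, so their counts and medians are a description. Of 12 tested m6A writers, 0 were called by limma and 4 had an unadjusted p under 0.05, beside 5.45% and 21.9% of all tested genes. The zinc finger subunit ZC3H13 averaged 16.3 ± 1.22 FPKM in NC and 11 ± 1.13 FPKM in oeALKBH5 (limma adjusted p = 0.104), and the catalytic subunit METTL3 at 21.6 ± 2.48 and 14.9 ± 3.13 FPKM (limma adjusted p = 0.153). Of 13 tested m6A readers, 2 rose and 2 fell, beside 3.02% of all tested genes that rose and 2.43% that fell. The list's median difference was -0.07, against 0.02 over all tested genes. HNRNPA2B1, a nuclear RNA-binding protein, fell from 709 ± 22.4 to 347 ± 45.3 FPKM (limma adjusted p = 5.60e-04). PRRC2A fell from 96.0 ± 5.99 to 73.6 ± 2.50 FPKM (limma adjusted p = 0.0473). IGF2BP2, which stabilises m6A-marked mRNAs, and YTHDF3, a cytoplasmic reader, were the readers that rose, YTHDF3 from 36.6 ± 4.71 to 62.5 ± 9.53 FPKM (limma adjusted p = 0.0259) and IGF2BP2 from 2.49 ± 0.729 to 8.26 ± 2.97 FPKM (limma adjusted p = 0.0383). With 1 library left out at a time, PRRC2A lost its call in all 6 fits (adjusted p up to 0.167) and IGF2BP2 in 5, all but that without oeALKBH5 replicate 3 (up to 0.116). YTHDF3 lost its call in 4, without NC replicates 1 and 3 and oeALKBH5 replicates 2 and 3 (up to 0.0901). HNRNPA2B1 passed in each of them.

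The genes that work alongside particular members were compared next. Of 14 tested partners of AlkB enzymes, among them the ASCC subunits that act with ALKBH3, TRMT112 that acts with ALKBH8, and the ALKBH5-binding helicase DDX3X, limma called 0, and 3 had an unadjusted p under 0.05, a share near the 21.9% of all tested genes. The 2 with the smallest p were PSPC1, a paraspeckle protein, at 24.3 ± 4.03 and 34.4 ± 3.67 FPKM (limma adjusted p = 0.113), and its partner NONO, at 154 ± 11 and 187 ± 19.2 FPKM (limma adjusted p = 0.137). Of 17 tested genes of transfer RNA wobble and formylcytidine modification, the pathways of ALKBH8 and ALKBH1, 0 were called and 2 had an unadjusted p under 0.05, a smaller share than the 21.9% of all tested genes. The thiolation factor CTU2 was at 5.98 ± 1.8 and 2.17 ± 0.546 FPKM (limma adjusted p = 0.0591) and the cytosine methyltransferase NSUN2 at 51.4 ± 1.94 and 43.2 ± 3.34 FPKM (limma adjusted p = 0.222).

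Of 15 genes of alkylation damage repair, the setting of ALKBH2 and ALKBH3, 3 fell and none rose, beside 2.43% of all tested genes that fell and 3.02% that rose. The list's median difference was -0.18, against 0.02 over all tested genes. PCNA, the sliding clamp to which ALKBH2 binds at replication forks, fell from 213 ± 14.3 to 96.0 ± 5.86 FPKM (limma adjusted p = 2.56e-04). The flap nuclease FEN1 fell from 58.5 ± 3.45 to 31.8 ± 7.17 FPKM (limma adjusted p = 0.0193), and the uracil glycosylase UNG from 35.7 ± 2.41 to 24.5 ± 0.880 FPKM (limma adjusted p = 0.0417). These 3 genes also serve DNA replication or remove uracil, and are not particular to alkylated bases. With 1 library left out, UNG lost its call in all 6 fits (adjusted p up to 0.135), and FEN1 in the 4 without NC replicate 1, 2 or 3 or oeALKBH5 replicate 3 (up to 0.0702).

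The enzymes that make or use 2-oxoglutarate, the cosubstrate of the whole family, included 1 gene that fell of 16 tested and none that rose, a share called of 6.25%, near the 5.45% of all tested genes. IDH1, the cytosolic isocitrate dehydrogenase that makes 2-oxoglutarate, fell from 327 ± 15.5 to 216 ± 14.2 FPKM, a difference of -0.59 (SE 0.07, limma adjusted p = 0.00371), with every oeALKBH5 library below every NC library. Among 27 other dioxygenases that use 2-oxoglutarate and iron, 5 rose and none fell, beside 3.02% of all tested genes that rose and 2.43% that fell. Estimates were positive in 22 of the 27, against 6667 of all 12757 tested genes, and the median difference was 0.40, against 0.02. As this list was chosen with earlier results of these data known, these values describe the list and do not test it. The histone demethylase KDM3A rose from 18.7 ± 3.93 to 43.6 ± 6.29 FPKM (difference 1.19, SE 0.19, limma adjusted p = 0.00993), and the collagen prolyl hydroxylase subunit P4HA1 from 49.4 ± 5.73 to 106 ± 5.62 FPKM (difference 1.09, SE 0.11, limma adjusted p = 0.00135). The collagen lysyl hydroxylase PLOD2 rose from 20.3 ± 4.25 to 42.5 ± 11.6 FPKM (limma adjusted p = 0.0323), and the histone demethylase KDM6A from 135 ± 6.0 to 204 ± 22 FPKM (limma adjusted p = 0.0103). The last of the 5, KDM4B, named after its values were seen, rose from 24.9 ± 1.08 to 36.7 ± 1.12 FPKM (limma adjusted p = 0.0327). Leaving out 1 library ended the call of KDM4B in all 6 fits (adjusted p up to 0.104), PLOD2 in all but that without oeALKBH5 replicate 1 (up to 0.0960), and KDM6A without NC replicate 3 (0.0547).

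**Figure D4:**
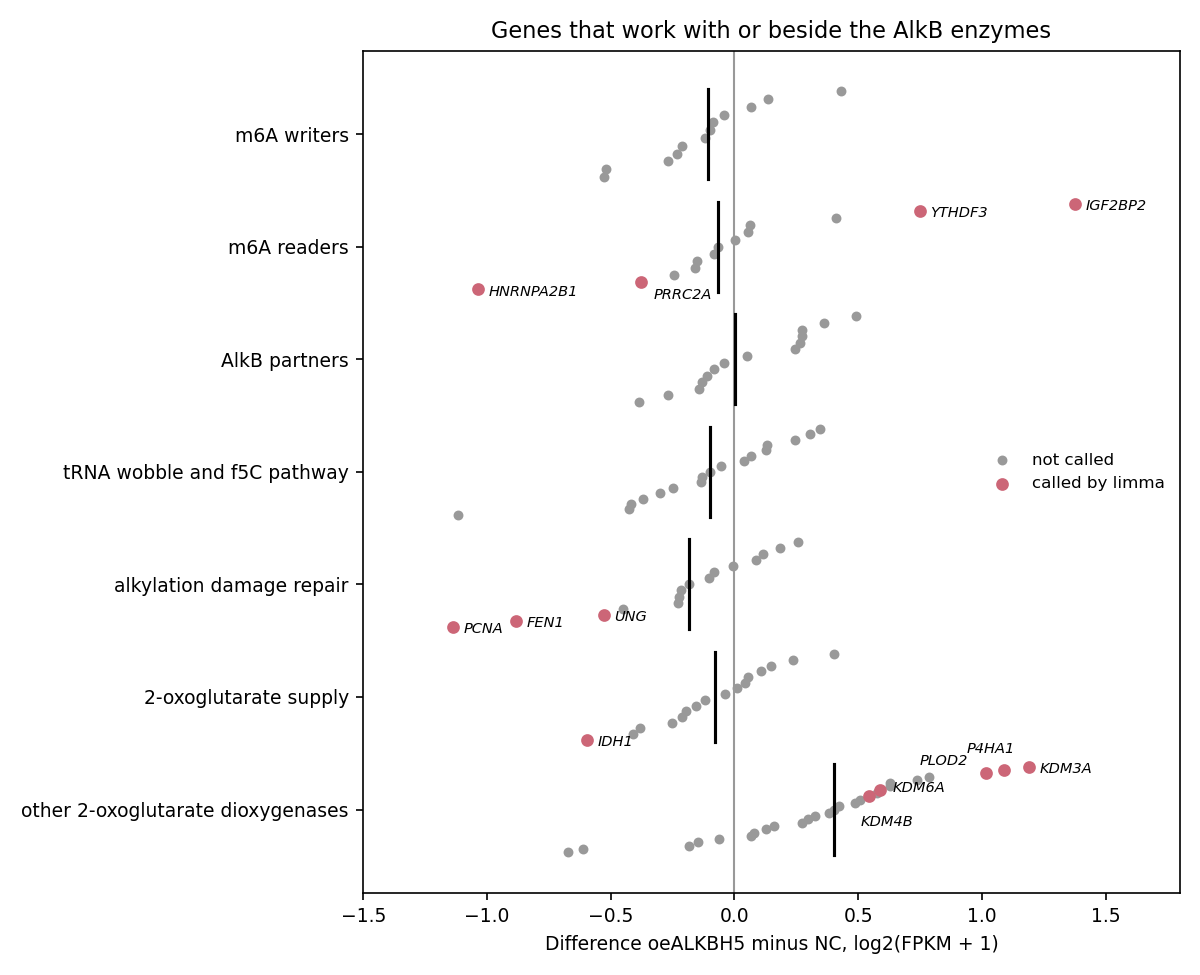
Difference between oeALKBH5 and NC on the log2(FPKM + 1) scale (horizontal axis) for the tested genes of 7 lists, with a point per gene, genes called by limma in red and a black line at each list's median. The list of other 2-oxoglutarate dioxygenases has the highest median, 0.40, and the alkylation repair list the lowest, -0.18.

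The last question was whether the lists of m6A peaks, the readout of the mark that ALKBH5 removes, were shorter with ALKBH5 overexpressed. The NC lists held 11902, 11559 and 11619 peaks and the oeALKBH5 lists 16060, 11478 and 15052. Replicates 1 and 3 of oeALKBH5 were longer than all NC lists, and replicate 2 was shorter than all of them (difference of means 2503 peaks, exact two-sided permutation p = 0.4). The covered length was 8142 ± 204 kb in NC and 8450 ± 765 kb in oeALKBH5 (exact two-sided permutation p = 0.7), with a median peak width of 354 to 379 bases in NC and 272 to 369 bases in oeALKBH5. The peak lists name no genes and their build, hg19, differs from that of the reference tables, so peaks on the AlkB transcripts were not analysed here. Counts of peaks in such lists depend on depth and on the caller's settings, whose part was not tested.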

How the data were processed

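The authors deposited FPKM for the 6 input libraries; no header gives the unit, which follows from the tools in the submitters' processing notes (cutadapt 1.9.3, HISAT2 2.0.4, Cufflinks and Cuffdiff, genome build hg19, roles not stated) and from the values. The score of each peak in the 6 deposited lists is the caller's own, at least 50, and was used only to filter peaks. Of 20308 genes, 18977 had a symbol in the name table. The 12757 genes averaging 0.5 FPKM or more were tested on log2(FPKM + 1) by limma 3.58.1 (R 4.3.3) with a trended variance prior and Benjamini-Hochberg adjustment over all tested genes at 0.05; this scale understates changes of low genes. Differences are oeALKBH5 minus NC. Samples were grouped by title. Single values and peak numbers had exact two-sided permutation tests (scipy 1.17.1, Python 3.11.15).

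The members and the 7 gene lists were chosen with earlier results of these data known. The text names all members, up to 4 called genes per list by size of difference or else the 2 with the smallest p, neighbours of members, and the 5 genes most correlated with ALKBH5. KDM4B, the last called gene of its list, falls outside this rule and was added after its values were seen. TRMT112 is in both the writer and the partner list; RBM15B and RIOX1 were not matched in the table. The fit was tested on simulated data, in which changes as small as that of ALKBH5 were not recovered and most of the larger ones were missed too. The simulation held fewer changed genes than were called here. It picked them at random among genes above a set level in NC, so low genes were not simulated as changed. It therefore does not give the power for ALKBH5 itself. An uncalled gene is not shown to be unchanged. Alternatives were another pseudocount (0.1 FPKM), filters (none, 1 FPKM), no trend, quantile and median-of-ratios scaling, a replicate block, and leaving out each library.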

Additional observations from a re-analysis of the deposited data

How the results depend on the processing

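No member was called under any of the 13 alternatives, and the ALKBH5 difference stayed between 0.25 and 0.34 (limma adjusted p 0.0912 to 0.282). The estimates that changed sign, all far from the threshold, were ALKBH4 (0.14 without NC replicate 3 and 0.13 without oeALKBH5 replicate 1, range -0.18 to 0.14 with a library left out), ALKBH7 (-0.11 without oeALKBH5 replicate 3, range -0.11 to 0.39), ALKBH8 (-0.059 without oeALKBH5 replicate 1, range -0.059 to 0.26) and the log2 ratio of ALKBH5 to FTO (0.09 without NC replicate 1, 0.10 without oeALKBH5 replicate 3; -0.18 to 0.10 over the fits that left out 1 library). The number of all genes called, 695, was 421 with no filter on low values, 270 without the trend and 344 with the replicate block, and 232 to 436 when 1 library was left out. Called m6A readers, 4, numbered 2 with no filter, with quantile scaling and with the replicate block, 1 without the trend, and 1 to 2 with a library left out. Called repair genes, 3, numbered 4 with median-of-ratios scaling and 2 with no filter and with the replicate block. They numbered 1 without the trend and 1 to 2 with a library left out. Of the other dioxygenases, 5, 2 were called without the trend and 2 to 5 with a library left out. IDH1 was lost without the trend, which left 0 in the 2-oxoglutarate list, and quantile scaling added 1 gene, CTU2, to the wobble list (adjusted p = 0.0445). The cause of these changes was not tested. No pairing of the libraries by replicate number was detected: deviations of same-numbered libraries correlated at -0.02, -0.02 and 0.03. This does not show whether same-numbered libraries were prepared together, which the labels do not state. With the replicate block, no member was called (ALKBH5 adjusted p = 0.174), and PRRC2A, IGF2BP2, UNG and KDM4B lost their calls. The difference in peak number was 392 above the median score of 186.6 and 1892 for peaks of at least 100 bases, and 1572 to 3863 with a list left out. Absolute depth is unknown, which limits what can be said of the low members ALKBH1, ALKBH4 and ALKBH8. Peaks at the members were planned and not run, since this needs an hg19 annotation.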
